A study of Mus musculus with 8 samples.

Results

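Serpins are a family of proteins that share one fold, and most of them block serine proteases by a suicide mechanism: the protease cuts an exposed loop, the loop inserts into the serpin, and the enzyme stays trapped in a covalent complex. Members are grouped into lettered clades. Clade A holds secreted plasma proteins such as alpha-1-antitrypsin, clade B holds intracellular inhibitors, and the other clades hold regulators of clotting, fibrinolysis and complement, a collagen chaperone and members that inhibit no protease. In mice the human alpha-1-antitrypsin and alpha-1-antichymotrypsin genes are each represented by a cluster of related copies, the Serpina1 and Serpina3 genes.

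The Serpin genes described here are all genes whose name on the array begins with Serpin: 59 of the 31896 named genes, read by 75 probes of 60 bases. Of these, 34 gave signal above background, as did 21742 genes in all, and the counts and medians that follow are over those 34. The other 25 were too dim to measure: Serpina12, Serpina3a, Serpina3f, Serpina4-ps1, Serpina5, Serpina7, Serpinb10, Serpinb12, Serpinb13, Serpinb1b, Serpinb1c, Serpinb2, Serpinb3a, Serpinb3b, Serpinb3d, Serpinb5, Serpinb7, Serpinb9b, Serpinb9c, Serpinb9d, Serpinb9f, Serpinb9g, Serpine3, Serpinf2 and Serpini2. A measured gene cleared the background in 4 or more of 16 readings (8 arrays with 2 dyes), which 1 genotype at 1 age can supply, so the 34 are not a sample of the family.

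The study compared brown adipose tissue (BAT), the heat-producing fat of rodents, from Prdm16 knockout and wild-type mice at 6 weeks and at 11 months of age. Prdm16 encodes a transcriptional regulator of brown fat identity. RNA of 1 knockout and 1 wild-type sample was hybridised together on each of 8 2-colour arrays, 4 per age, and the knockout carried Cy3 on 6-week-old arrays 1 and 2 and on 11-month-old arrays 3 and 4, and Cy5 on the others. The submitters call the 4 arrays of an age biological replicates. The sources used here do not give the knockout allele, any Cre driver, the strain, the sex or whether RNA of several mice was pooled. The ages were run as separate batches, each on its own slide with its own scan, so that age, batch, slide and scan cannot be told apart.

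Values are given as log2 of the knockout signal over the wild-type signal and are listed in the order of arrays 1 to 4 of an age. A difference was called at a Benjamini-Hochberg adjusted p below 0.05 over all genes in limma. Prdm16 itself read -0.39, 0.06, -1.09 and -0.88 at 6 weeks and -0.96, -0.18, -0.44 and -0.42 at 11 months. It was lower by the fit at both ages (-0.58 ± 0.15 SE, adjusted p = 0.042, and -0.50 ± 0.15, adjusted p = 0.0372), but the sample labelled knockout on 6-week-old array 2 was not below its wild-type partner. The labels do not say whether the Prdm16 probe falls inside the deletion. Without 6-week-old array 2, 2 Serpin genes remained called at that age, Serpina1d and Serpina3c. Of 8 brown adipocyte markers, all were measured and none passed at 6 weeks, where 9.18% of all genes were higher and 7.01% lower. Their summed log2 level at 6 weeks was 18.9 to 19.7 in the knockout and 19.4 to 19.9 in wild type. All 8 were lower at 11 months, beside 16.8% of all genes, from Ppargc1a at -1.44 to Ucp1 at -4.05. Summed levels at that age were 16.1 to 18.4 against 20.2 to 20.7. Markers of skeletal muscle, 8 of 8 measured, set some arrays apart: their medians were 0.02, -2.86, 2.94 and -3.45 at 6 weeks and -0.36, -1.26, -0.30 and 1.80 at 11 months. In whole tissue, fewer cells of a type and less RNA per cell cannot be told apart.

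At 6 weeks 9 of the 34 Serpin genes were higher in the knockout, which is 26.5% beside 9.18% of all genes tested, and 0 were lower beside 7.01%. They were Serpina1a, Serpina1c, Serpina1d, Serpina1e, Serpina3c, Serpina3k, Serpina3m, Serpinc1 and Serpind1. At 11 months 11 Serpin genes were higher (32.4% beside 17.9%) and 1 was lower (2.94% beside 16.8%). The higher genes included Serpina1a, Serpina1c, Serpina1e, Serpina3c, Serpina3n, Serpinb6a, Serpinb6c, Serpinb9, Serpinf1 and Serpinh1, with Serpinb11 as the lower one. The response to the knockout was itself larger at 11 months, or turned upward, in 7 Serpin genes (20.6% beside 8.46%) and smaller, or turned downward, in 2 (5.88% beside 9.71%). Over all genes, 56.7% of the calls were higher at 6 weeks, 51.7% at 11 months and 46.6% for the difference, and with each array centred on its median in place of loess the shares were 70.0%, 70.8% and 59.6%. The median over the Serpin genes was 0.04 at 6 weeks and 0.22 at 11 months, beside -0.00 and 0.01 over all genes.

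The lists of called members differed between the 2 ages, but a call at 1 age only is not itself a difference between ages. The genes called at both were Serpina1a, Serpina1c, Serpina1e and Serpina3c, while 5 were called at 6 weeks only, 8 at 11 months only and 17 at neither. Among those called at 1 age only, Serpina1d, Serpina3k, Serpina3m, Serpinb11 and Serpinh1 did not pass for the difference between ages. The 6-week count rests on single arrays: it was 1, 2, 2 and 6 when 6-week-old array 1, 2, 3 or 4 was left out, and Serpina3c was the 1 gene called each time. The 11-month count stayed between 8 and 14 when any 1 array was left out, and it was 8 without 11-month-old array 1. The count for the difference fell to 4 when the 6-week-old array 1 or 2 or the 11-month-old array 2 was missing, to 5 when the 11-month-old array 1 or 4 was, to 2 with median centring (Serpina3n and Serpinf1) and to 5 without the dye term. Because the probes of the Serpina1 copies share most of their bases, as shown further on, Serpina1a, Serpina1c and Serpina1e do not count as independent genes.

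**Figure D1:**
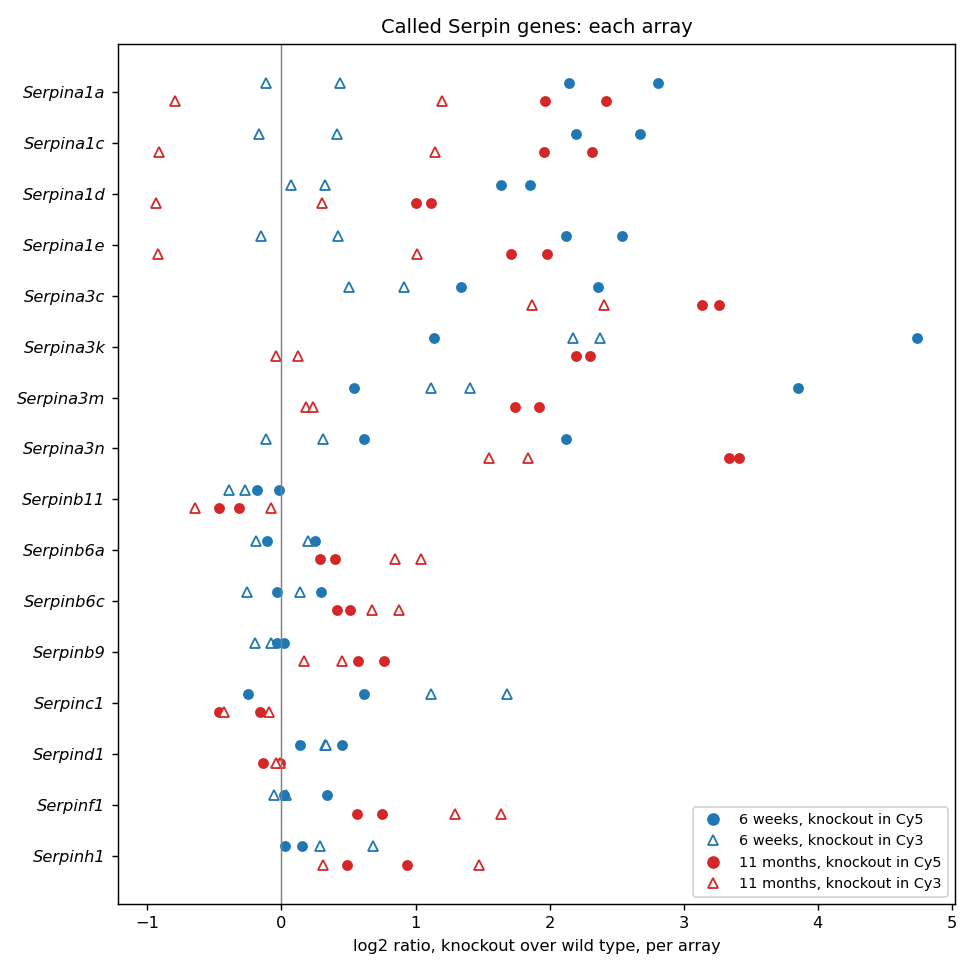
Log2 ratio (x axis) of the Serpin genes described in the text that were called at either age (y axis), with 1 point per array: blue for the 4 at 6 weeks, red for the 4 at 11 months, filled circles where the knockout was Cy5 and open triangles where it was Cy3. Serpina3c is above 0 on all 8 arrays, the filled circles of the Serpina1 copies lie to the right of their triangles at both ages, and the red points of Serpinf1, Serpinb6a, Serpinb6c and Serpinb9 lie to the right of the blue ones.

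The Serpina1 copies encode alpha-1-antitrypsin, the main plasma inhibitor of neutrophil elastase, which the liver makes in large amounts. Of 5 measured genes of this cluster on chromosome 12, 4 rose at 6 weeks and 3 at 11 months. Of all genes tested, 9.18% and 17.9% were higher at these ages. Serpina1a read 0.44, -0.11, 2.81 and 2.15 at 6 weeks and 2.42, 1.97, 1.20 and -0.80 at 11 months. At each age the 2 arrays with the knockout in Cy5 were the highest and 1 array was below 0, and the ages overlapped. The fit, which takes out a dye term, gave 1.32 ± 0.29 (2.49-fold, adjusted p = 0.023) at 6 weeks and 1.20 ± 0.29 (2.29-fold, adjusted p = 0.0149) at 11 months. The dye term was 1.08 with adjusted p = 0.0308, so it was nearly as large as the change in genotype, and without it neither age passed (adjusted p = 0.188 and 0.166).

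The normalised channel levels show where this spread lay. The knockout samples were close together, from 10.01 to 10.97 in log2 intensity of Serpina1a at 6 weeks and from 10.27 to 10.51 at 11 months. The wild-type samples ranged from 8.16 to 10.15 at 6 weeks and from 7.96 to 11.07 at 11 months. On 11-month-old array 4 the wild-type sample, at 11.07, was the highest of all 16, above its knockout partner at 10.27. Channel levels are open to dye bias, and in these arrays each sample was read in 1 dye only, so sample and dye cannot be told apart within an array.

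Serpina1c, another alpha-1-antitrypsin copy, read 0.42, -0.16, 2.68 and 2.20 at 6 weeks and 2.31, 1.96, 1.14 and -0.92 at 11 months, array by array almost the values of Serpina1a. Its fitted changes were 1.28 ± 0.29 (2.43-fold, adjusted p = 0.0249) and 1.13 ± 0.29 (2.18-fold, adjusted p = 0.0192). Serpina1e read 0.42, -0.15, 2.54 and 2.12, then 1.98, 1.71, 1.01 and -0.92, with changes of 1.23 ± 0.27 (adjusted p = 0.0236) and 0.95 ± 0.27 (adjusted p = 0.0299). These 3 copies thus had the same high and the same low arrays. Their 6-week calls ended without any 1 of the 4 6-week-old arrays, with adjusted p from 0.0542 to 0.111. Without background subtraction, in the scanner's own ratio and in the deposited table none of the 4 rising Serpina1 copies passed at 6 weeks, with adjusted p from 0.0503 to 0.0774 and changes from 1.09 to 1.47. The 11-month call ended for Serpina1a without 11-month-old array 1 (adjusted p = 0.0662), and for Serpina1c and Serpina1e without array 1 or array 2, with adjusted p up to 0.0774 and 0.101. The 11-month values without array 3 were 0.77, 0.68 and 0.52 and still passed.

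The sequences of the probes show how far these 3 readings repeat each other. The probes of Serpina1a and Serpina1c match in 50 of 51 overlapping bases, Serpina1c and Serpina1e in 49 of 59, and Serpina1a and Serpina1e in 39 of 50. The stretches of 30 bases that follow lie at chr12:105091844-105091873, chr12:105133181-105133210 and chr12:105185187-105185216 of mm9 on the minus strand, and capitals mark the 29 bases that all 3 probes share. The array's own annotation lists the Serpina1c probe under Serpina1a, Serpina1b, Serpina1c and Serpina1e.
Serpina1a: tGTCATCCTTCCTTCTGAATTGGGTTCCTT
Serpina1c: tGTCATCCTTCCTTCTGAATTGGGTTCCTT
Serpina1e: aGTCATCCTTCCTTCTGAATTGGGTTCCTT

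Serpina1d, a copy with a reactive loop that differs from the other alpha-1-antitrypsins, has a probe of other sequence at chr12:105002930-105002989 of mm9 on the minus strand, listed under Serpina1b and Serpina1d. It is printed whole, in lower case throughout, as the probe of a called copy that shares at most 28 bases with any of the 3 above.
Serpina1d: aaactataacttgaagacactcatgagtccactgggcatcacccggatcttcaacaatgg
It read 0.33, 0.07, 1.85 and 1.64 at 6 weeks, all above 0, and 1.12, 1.0, 0.30 and -0.93 at 11 months. The change was 0.97 ± 0.17 (1.96-fold, adjusted p = 0.0114) at 6 weeks and 0.37 ± 0.17 (adjusted p = 0.132) at 11 months, and the difference between ages did not pass (-0.60 ± 0.24, adjusted p = 0.126). The 11-month change was 0.60 (adjusted p = 0.018) without 11-month-old array 4 and 0.11 (adjusted p = 0.467) without array 3, and in the latter fit the difference passed (-0.86, adjusted p = 0.0108). The 6-week change no longer passed when array 1 (adjusted p = 0.0567) or array 3 (adjusted p = 0.0511) was taken out. Serpina1f, the most distant copy, read -0.22, -0.01, 0.08 and 0.14, then 0.14, 0.01, 0.01 and 0.01, and was called at neither age.

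The Serpina3 copies descend from the antichymotrypsin gene, and several of them are acute-phase proteins whose reactive loops have diverged. Of 7 measured members, 3 rose at 6 weeks (Serpina3c, Serpina3k and Serpina3m) and 2 at 11 months (Serpina3c and Serpina3n). Among all genes tested, 9.18% were higher at 6 weeks and 17.9% at 11 months. Serpina3c, a kallikrein-binding inhibitor, read 0.91, 0.50, 2.36 and 1.34 at 6 weeks and 3.26, 3.14, 1.87 and 2.40 at 11 months. All 8 arrays were above 0, and the ages overlapped only in that 6-week-old array 3 lay above 11-month-old array 3. The change was 1.28 ± 0.16 (2.43-fold, adjusted p = 0.00373) at 6 weeks and 2.67 ± 0.16 (6.35-fold, adjusted p = 4.28e-05) at 11 months. The calls at both ages held under every alternative that was run. The difference between ages was 1.39 ± 0.23 (adjusted p = 0.0077), and it missed the threshold with median centring (adjusted p = 0.0551) and without the dye term (adjusted p = 0.0758).

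Serpina3n is the copy best known as an acute-phase protein and an inhibitor of granzyme B and leukocyte elastase. It read 0.31, -0.11, 2.12 and 0.62 at 6 weeks and 3.41, 3.34, 1.84 and 1.55 at 11 months. Every 11-month-old array was above 1.5, while at 6 weeks array 3 stood alone at 2.12. The change was 0.73 ± 0.21 at 6 weeks (adjusted p = 0.0547) and 2.53 ± 0.21, a 5.8-fold rise, at 11 months (adjusted p = 0.000139). The difference between ages was 1.80 ± 0.30 (adjusted p = 0.00804, or 0.0813 without the dye term). At 6 weeks the gene passed without array 4, at 1.08 with adjusted p = 0.00646.

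Serpina3k, known in plasma as contrapsin, had the largest 6-week change of the family. It read 2.38, 2.17, 4.74 and 1.14 at 6 weeks, all above 1, and 2.30, 2.20, 0.12 and -0.04 at 11 months, where arrays 1 and 2 were high and arrays 3 and 4 near 0. The change was 2.61 ± 0.50 (6.09-fold, adjusted p = 0.0155) at 6 weeks and 1.14 ± 0.50 (adjusted p = 0.118) at 11 months. In the 11-month-old tissue it was above background in 3 of 4 knockout samples and 1 of 4 wild-type samples. With 6-week-old array 1, 2 or 3 taken out it missed the threshold at 6 weeks (adjusted p from 0.0543 to 0.0784).

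Serpina3m, a neighbouring copy, had the same high arrays: 1.12, 1.41, 3.85 and 0.54 at 6 weeks and 1.74, 1.92, 0.18 and 0.24 at 11 months. Its change was 1.73 ± 0.44 (3.32-fold, adjusted p = 0.035) at 6 weeks and 1.02 ± 0.44 (adjusted p = 0.109) at 11 months. At 6 weeks it no longer passed when array 1, 2 or 3 of either age was taken out, and the change was 1.14 (adjusted p = 0.0939) without 6-week-old array 3. For both genes the difference between ages did not pass, at -1.46 ± 0.71 (adjusted p = 0.193) for Serpina3k and -0.71 ± 0.62 (adjusted p = 0.461) for Serpina3m. Single arrays moved both. Without 6-week-old array 4 they passed, at -2.34 (adjusted p = 0.00188) and -1.44 (adjusted p = 0.0125), and without 6-week-old array 3 they were -0.89 and -0.12. At 11 months Serpina3m, like Serpina3k, was above background in 1 of 4 wild-type samples. Both genes passed there without background subtraction, in the scanner's ratio and in the deposited table, with changes from 1.58 to 3.39. At the same values of 1.14 and 1.02 both also passed when the 11-month-old arrays were fitted by themselves (adjusted p = 0.000952 and 0.00112) and without 6-week-old array 4 (0.000156 and 0.00202), and Serpina3m without 6-week-old array 3 (0.0371).

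The remaining measured copies did not pass at either age. Serpina3g, an intracellular cathepsin inhibitor of blood-forming cells, had -0.13 ± 0.11 and 0.24 ± 0.11, Serpina3h 0.14 ± 0.10 and 0.08 ± 0.10, and Serpina3b 0.00 ± 0.05 and -0.10 ± 0.05. No pair of Serpina3 probes was alike: the 6 pairs of genes with 35 or more identical bases, of 561 pairs compared, were all within the Serpina1 or the Serpinb6 copies, and every other pair had at most 28.

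**Figure D2:**
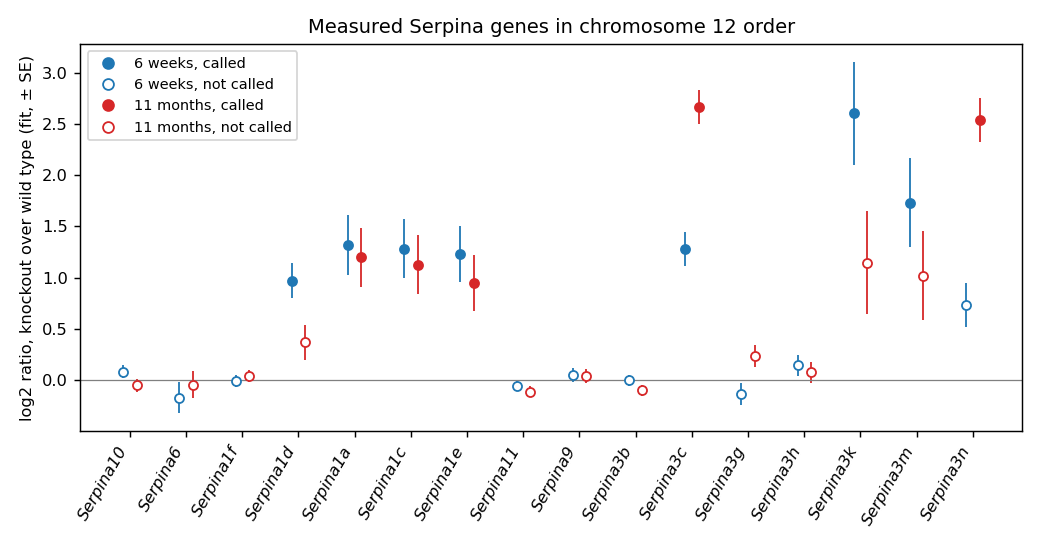
Fitted log2 change (y axis, ± SE) of the 16 measured clade A genes in their order along chromosome 12 (x axis, not to distance), at 6 weeks (blue) and at 11 months (red), filled where called. Serpina1d to Serpina1e and Serpina3c, Serpina3k, Serpina3m and Serpina3n lie above 0, and genes between them, such as Serpina11, Serpina9 and Serpina3b, lie near 0.

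Among the measured genes along chromosome 12, Serpina1d, Serpina1a, Serpina1c and Serpina1e lay side by side, as did Serpina3k, Serpina3m and Serpina3n. Serpina3c lay between Serpina3b and Serpina3g, and genes that were not called lay between and outside these runs. Serpina11 and Serpina9 lie between the last Serpina1 copy and Serpina3b, and read -0.05 ± 0.05 and 0.05 ± 0.07 at 6 weeks and -0.11 ± 0.05 and 0.04 ± 0.07 at 11 months. Serpina9 is expressed in germinal centre B cells. Serpina10, an inhibitor of clotting factor Xa that needs protein Z, had 0.08 ± 0.06 and -0.05 ± 0.06. Serpina6, the corticosteroid-binding globulin of plasma, had -0.17 ± 0.15 and -0.04 ± 0.13; 6-week-old array 1 gave no usable spot, and its dye term passed (0.51, adjusted p = 0.041). These 4 members outside the 2 clusters passed at neither age.

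Promoters of genes that rose together are printed for 4 members, with the 250 bases before the RefSeq start site in GRCm38.p6, a later build than that of the probes. Of the 34 measured genes, 25 had a promoter in the table, with 27 start sites between them, and Serpina3k and Serpina3m were among those without one. Capitals mark matches on either strand to 6 short motifs: TATAAA, the core promoter box, TTCNNNGAA, named for STAT factors, TTGCNNAA for C/EBP factors, AGAACA for the glucocorticoid receptor, CAGACA for SMAD factors and GTTAAT for the HNF1 factors. The regions are chr12:103863620-103863869 and chr12:103904951-103905200 for Serpina1a and Serpina1c and chr12:104153873-104154122 for Serpina3c, all on the minus strand, and chr12:104406458-104406707 on the plus strand for Serpina3n.
Serpina1a: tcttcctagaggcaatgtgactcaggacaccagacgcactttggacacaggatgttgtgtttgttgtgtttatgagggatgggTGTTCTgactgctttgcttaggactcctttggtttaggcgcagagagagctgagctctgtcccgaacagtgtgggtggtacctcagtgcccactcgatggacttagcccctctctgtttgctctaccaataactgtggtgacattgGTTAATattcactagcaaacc
Serpina1c: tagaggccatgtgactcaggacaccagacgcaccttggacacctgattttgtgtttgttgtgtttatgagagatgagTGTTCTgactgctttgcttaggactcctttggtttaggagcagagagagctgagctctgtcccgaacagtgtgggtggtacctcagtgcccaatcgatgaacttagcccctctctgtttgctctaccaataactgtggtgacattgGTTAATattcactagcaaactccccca
Serpina3c: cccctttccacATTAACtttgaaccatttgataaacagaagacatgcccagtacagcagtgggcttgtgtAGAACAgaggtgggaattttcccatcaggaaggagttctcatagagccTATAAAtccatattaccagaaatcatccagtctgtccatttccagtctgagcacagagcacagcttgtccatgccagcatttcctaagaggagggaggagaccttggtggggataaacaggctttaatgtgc
Serpina3n: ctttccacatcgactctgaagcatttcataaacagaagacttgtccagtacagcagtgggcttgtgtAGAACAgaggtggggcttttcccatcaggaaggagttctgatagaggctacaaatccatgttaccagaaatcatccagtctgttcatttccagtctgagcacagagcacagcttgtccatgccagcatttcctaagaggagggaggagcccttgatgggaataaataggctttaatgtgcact

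Within each pair the promoters are near copies. Serpina1a and Serpina1c match in 233 of 244 aligned bases (95.5%), and Serpina3c and Serpina3n, whose changes were the largest at 11 months, match in 229 of 247 (92.7%). The promoter of Serpina3b, which was not called at either age, matches that of Serpina3c in 106 of 247 bases (42.9%). The AGAACA motif, on the minus strand as TGTTCT, starts 167 and 173 bases before the Serpina1a and Serpina1c starts, and on the plus strand 180 and 183 bases before the Serpina3c and Serpina3n starts. GTTAAT starts 21 and 27 bases before the 2 Serpina1 starts and, on the minus strand, 239 bases before that of Serpina3c, which also holds TATAAA at 132.

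These motifs are short and common. AGAACA is in 29.6% of the 27 Serpin promoters and in 16.1% of all 32851 promoters of that length, and GTTAAT in 22.2% and 6.4%. For TTCNNNGAA the shares are 18.5% and 7.0%, for TTGCNNAA 14.8% and 9.6%, for CAGACA 18.5% and 17.1%, and for TATAAA 11.1% and 12.4%. As several Serpin promoters are copies of one another, their matches are not independent, and a match is a description of letters only.

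Clade B serpins act inside cells, where they protect against proteases released from granules and lysosomes. Of 10 measured members none passed at 6 weeks, where 9.18% of all genes were higher and 7.01% lower. At 11 months 3 were higher and 1 was lower, beside 17.9% and 16.8% of all genes. Serpinb6a, an inhibitor of cathepsin G found in many tissues, read 0.20, -0.19, 0.25 and -0.10 at 6 weeks and 0.40, 0.29, 0.85 and 1.04 at 11 months. The lowest 11-month-old array was above the highest 6-week-old one. The change was 0.04 ± 0.12 at 6 weeks (adjusted p = 0.862) and 0.64 ± 0.12 (1.56-fold, adjusted p = 0.00484) at 11 months.

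Serpinb6c, its neighbour on chromosome 13, read 0.14, -0.26, 0.29 and -0.03, then 0.51, 0.41, 0.68 and 0.87, again without overlap. Its change was 0.04 ± 0.11 at 6 weeks and 0.62 ± 0.11 (1.53-fold, adjusted p = 0.0033) at 11 months. The differences between ages passed narrowly in both genes, at 0.61 ± 0.17 (adjusted p = 0.0448) and 0.58 ± 0.15 (adjusted p = 0.0344), and when 1 array at a time was left out they held only without 6-week-old array 3. Without 6-week-old arrays 2 and 4 and 11-month-old array 4, 3 of the 4 arrays with far muscle medians, the differences were 0.34 (adjusted p = 0.326) and 0.33 (adjusted p = 0.256).

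The Serpinb6 probes also overlap. The standing probes of Serpinb6a and Serpinb6c match in 39 of 42 bases, Serpinb6c and Serpinb6e in 41 of 47, and Serpinb6a and Serpinb6e in 43 of 55. Stretches of 30 bases are shown from chr13:34009826-34009855, chr13:33971715-33971744 and chr13:33924243-33924272 of mm9, minus strand, with the 25 bases shared by all 3 in capitals, to show how far these readings repeat each other.
Serpinb6a: AAGTGACCTTATCCATAAgTgcAATGgCAa
Serpinb6c: AAGTGACCTTATCCATAAgTgcAATGaCAg
Serpinb6e: AAGTGACCTTATCCATAAaTatAATGaCAg
In this stretch Serpinb6a matches Serpinb6c in 28 bases and Serpinb6e in 25. Serpinb6e had 0.09 ± 0.07 and 0.16 ± 0.07 (adjusted p = 0.112 at 11 months) from a dim probe that was above background in 1 of 4 wild-type samples at 11 months. Its 11-month change depended on how background was handled, and passed without subtraction (0.31, adjusted p = 0.00412), in the scanner's ratio (0.80, adjusted p = 0.0037) and in the deposited table (0.32, adjusted p = 0.00437). Serpinb6b had -0.17 ± 0.13 and 0.20 ± 0.13.

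Serpinb9, the inhibitor of granzyme B by which cytotoxic cells and others protect themselves, read -0.20, -0.08, 0.02 and -0.03 at 6 weeks and 0.57, 0.77, 0.17 and 0.45 at 11 months. All 11-month-old arrays lay above all 6-week-old ones. The change was -0.07 ± 0.07 at 6 weeks and 0.49 ± 0.07 (1.41-fold, adjusted p = 0.00149) at 11 months, and the difference between ages was 0.56 ± 0.10 (adjusted p = 0.00984), called whichever 1 array was left out but not with median centring (adjusted p = 0.0978). Of 5 cytotoxic lymphocyte markers 4 were measured, and at 11 months 1 was called, Nkg7 at -0.30 (25% lower, beside 16.8% of all genes). Their summed log2 level was 11.1 to 11.2 in the knockout and 11.2 to 11.5 in wild type at that age, and its part in the result was not tested.

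Serpinb11 was the 1 Serpin gene called lower. It read -0.39, -0.27, -0.02 and -0.18 at 6 weeks and -0.32, -0.47, -0.08 and -0.64 at 11 months, below 0 on all 8 arrays. The change was -0.22 ± 0.10 (adjusted p = 0.169) and -0.38 ± 0.10 (adjusted p = 0.0194), from a dim probe that was above background in 2 of 4 knockout samples at 11 months. The 11-month call ended without 11-month-old array 1, 2 or 4, and the size depended on the background: it was -0.65 without subtraction and -1.69 in the scanner's own ratio.

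The other clade B genes were not called. Serpinb1a, an inhibitor of neutrophil elastase and cathepsin G, had -0.11 ± 0.07 and 0.19 ± 0.07 (adjusted p = 0.0741 at 11 months). Serpinb8, an inhibitor of furin, read -1.08, -0.38, 0.41 and 0.31, then 0.60, 0.52, -0.63 and -0.07. It was positive on every array with the knockout in Cy5 and negative on every other, with a dye term of 0.50 (adjusted p = 0.0272) and changes of -0.19 ± 0.13 and 0.10 ± 0.13. The changes were -0.06 ± 0.05 and 0.04 ± 0.05 for Serpinb3c, a relative of the squamous cell carcinoma antigens, and 0.04 ± 0.08 and -0.02 ± 0.08 for Serpinb9e.

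Clades C and D hold the heparin-activated inhibitors of clotting made by the liver. Serpinc1, antithrombin, read 1.68, 1.12, 0.62 and -0.25 at 6 weeks and -0.16, -0.46, -0.09 and -0.43 at 11 months. Array 4 was the 1 6-week-old array below 0 and it lay among the 11-month-old values, all of which were negative. The change was 0.79 ± 0.21 (1.73-fold, adjusted p = 0.0422) at 6 weeks and -0.29 ± 0.21 (adjusted p = 0.337) at 11 months, with a difference between ages of -1.08 ± 0.30 (adjusted p = 0.044). At 6 weeks it no longer passed when array 1, 2 or 3 of the 6-week-old or 2 or 3 of the 11-month-old set was taken out, with adjusted p up to 0.177. The difference held in 2 of 8 such fits. The 6-week call also ended in 6 of 12 other alternatives. Among them were no background subtraction, median centring, the deposited table and no dye term (adjusted p from 0.0695 to 0.0796). The scanner's own ratio gave 1.55 with adjusted p = 0.106 at 6 weeks and -2.76 for the difference. Wild-type levels on 6-week-old arrays 1 and 2 were 6.87 and 6.81 in log2. The lowest wild-type signals among probes well above background there were 6.86 and 6.65.

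Serpind1, heparin cofactor II, which inhibits thrombin, read 0.33, 0.33, 0.14 and 0.45 at 6 weeks and -0.13, -0.01, -0.01 and -0.04 at 11 months. The ages did not overlap, and every 6-week-old array was above 0. The change was small, 0.31 ± 0.06 (1.24-fold, adjusted p = 0.0176) at 6 weeks and -0.05 ± 0.06 at 11 months, and the difference was -0.36 ± 0.09 (adjusted p = 0.0299). With array 1, 2 or 4 taken out the 6-week change missed the threshold (adjusted p from 0.0631 to 0.0702). Its difference between ages held in 1 of the 8 fits that left out 1 array, that without 6-week-old array 3. The probe was dim, above background in 2 of 4 wild-type samples at 11 months, and its 6-week change was 0.48 in the deposited value table and 0.87 in the scanner's own ratio.

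In clade E, Serpine2, protease nexin 1, which inhibits thrombin and urokinase, read 0.28, -0.46, 0.03 and -0.16, then 0.07, 0.05, 0.11 and 0.91, and was not called.

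Serpinf1 encodes pigment epithelium-derived factor, a secreted serpin that inhibits no protease and limits vessel growth. It read 0.03, -0.05, 0.34 and 0.02 at 6 weeks and 0.75, 0.56, 1.64 and 1.29 at 11 months. The ages did not overlap, and 11-month-old arrays 3 and 4 were highest. The change was 0.08 ± 0.15 at 6 weeks and 1.06 ± 0.15 (2.09-fold, adjusted p = 0.00132) at 11 months, with a difference of 0.98 ± 0.21 (adjusted p = 0.0191). A dimmer second probe of the gene gave 0.11 and 0.36 ± 0.13 (adjusted p = 0.0613 at 11 months) in a fit over all probes that was chosen after seeing the data, and the difference between ages in that probe was 0.24 (adjusted p = 0.379). With the mean of both probes the difference was 0.61 (adjusted p = 0.0586), and it also did not pass when 6-week-old array 2 was taken out (adjusted p = 0.0568) or when 6-week-old arrays 2 and 4 and 11-month-old array 4 were (0.87, adjusted p = 0.207).

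Serpinh1, the collagen chaperone HSP47 of the endoplasmic reticulum, read 0.68, 0.29, 0.03 and 0.16 at 6 weeks and 0.49, 0.94, 1.47 and 0.31 at 11 months. All arrays were above 0 and the ages overlapped. The change was 0.29 ± 0.17 (adjusted p = 0.297) and 0.80 ± 0.17 (1.75-fold, adjusted p = 0.00972). The 11-month call ended without 11-month-old array 2 (adjusted p = 0.0559), and the difference between ages, 0.51 ± 0.25, did not pass (adjusted p = 0.188).

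Serping1, the C1 inhibitor of the complement and contact systems, read 0.02, -0.32, 0.23 and -0.31, then 0.29, -0.10, 1.33 and 0.67. Its highest value was again on 11-month-old array 3, the array that correlated least with the deposited table (0.885) and whose lowest knockout signal among probes well above background was 3.24 in log2, beside 6.45 to 6.85 on the others. It missed the threshold at that age (0.55 ± 0.19, adjusted p = 0.0551). Serpini1, neuroserpin, an inhibitor of tissue plasminogen activator, was near 0 at both ages (-0.08 ± 0.06 and 0.07 ± 0.06). Serpinf1, Serpinh1 and Serping1 are all made by fibroblasts.

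At 11 months Serpinf1 was second highest on array 4 (1.29), where Serpinh1 was lowest (0.31). The fibroblast markers, like Serpinf1, Serpinh1 and Serping1, were highest on 11-month-old array 3. All 6 of 6 were measured and none passed at 6 weeks. All 6 were higher at 11 months, beside 17.9% of all genes, from Pdgfra at 0.49 to Col3a1 at 1.90. Their median on 11-month-old array 3 was 2.86, beside 0.77 to 0.86 on the other 3. Their summed log2 level ran from 16.50 to 18.13 in the knockout and from 15.59 to 15.98 in wild type at 11 months, and from 16.18 to 16.46 and 15.99 to 16.61 at 6 weeks. Macrophage markers, 5 of 5 measured, had 4 higher at 11 months (80%, beside 17.9% of all genes). Their summed levels at that age were 12.7 to 13.9 in the knockout and 12.3 to 12.7 in wild type. The part of fibroblasts and macrophages in the Serpin results was not tested. Without 11-month-old array 3 the 11-month Serpin count was still 12, and Serpinf1 and Serpinh1 were among the genes called. That fit kept the other 3 arrays, with fibroblast medians of 0.77 to 0.86, so it did not test the fibroblast part.

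**Figure D3:**
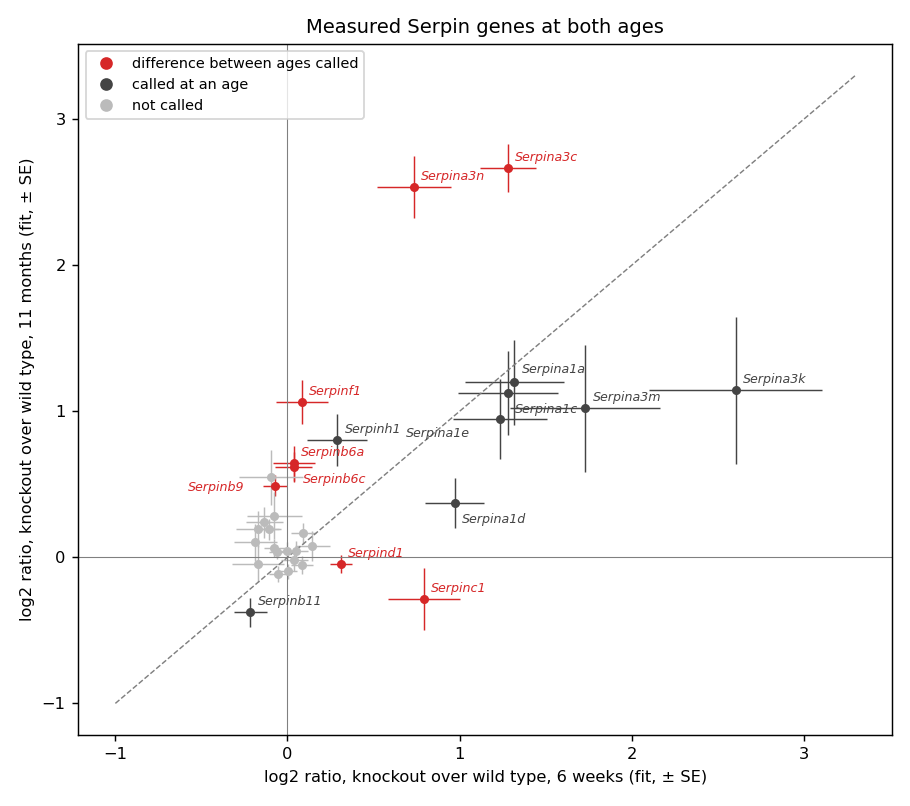
Fitted log2 change (± SE) of the measured Serpin genes described in the text at 6 weeks (x axis) and at 11 months (y axis), in red where the difference between ages was called, dark grey where only an age was called and light grey where nothing was; the dashed line marks equal change. Serpina3c and Serpina3n lie highest at 11 months, Serpina3k is farthest right at 2.61, and Serpinc1 and Serpind1 lie to the right and at or under 0.

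Liver contributes most plasma serpins, so hepatocyte markers were read beside the Serpina1, Serpina3, Serpinc1 and Serpind1 values. Of 12 such genes only 5 were measured, and Alb, Ttr, Apoa1, Apob, Ahsg, Fgb and Fgg, which define hepatocytes, were not above background. The summed log2 level of the 5 was 15.7 to 16.7 in the knockout and 14.1 to 15.7 in wild type at 6 weeks, and 17.2 to 17.5 and 13.5 to 14.4 at 11 months. A sum of intensities gives bright genes the most weight, so these levels are not a rise of the 5 as a set. Cyp2e1, which fat also expresses, was the 1 called higher, by 1.74 and 4.11 (20% at each age, beside 9.18% and 17.9% of all genes). Apoa2 was lower at 6 weeks (-0.28) and Cps1 at 11 months (-0.51). The medians of the 5 were -0.01 and -0.11. The part of liver in the Serpin results was not tested. Keratinocyte markers, a source of clade B serpins, had 6 of 8 measured, with Krt1 and Dsg1a not above background. Krt10 was the 1 called gene (0.32 at 6 weeks, 16.7% higher beside 9.18% of all genes).

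Skeletal muscle markers were called at neither age but set arrays apart, as given above. At 6 weeks Serpina3k and Serpina3m were highest on array 3 and lowest on array 4, where muscle markers were highest and lowest, but Serpina3m was second highest on array 2, with a muscle median of -2.86. At 11 months muscle markers were highest on array 4, where Serpina3k was lowest at -0.04 and Serpina3m read 0.24. The summed log2 level of these markers ran from 11.3 to 13.8 in the knockout and from 10.4 to 16.6 in wild type at 6 weeks, and from 15.4 to 18.6 and 15.7 to 18.2 at 11 months. With 6-week-old arrays 2 and 4 and 11-month-old array 4 left out, chosen after seeing the data, Serpina3k, Serpina3m and Serpina3n were called at both ages. That fit kept 6-week-old array 3, whose muscle median of 2.94 was as far from 0, and where these 3 genes were highest at that age. Without array 3 alone, Serpina3k (adjusted p = 0.0543), Serpina3m (0.0939) and Serpina3n (0.174) were not called at 6 weeks. The part of muscle in these results was not tested beyond this. The fit without the 3 arrays called 7 Serpin genes at 6 weeks, 14 at 11 months and 3 for the difference.

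Acute-phase genes, which include many that rise with Serpina3n in inflammation, were counted from a list of 19 with 18 measured. At 6 weeks 4 were higher (22.2%, beside 9.18% of all genes) and 0 lower, and at 11 months 11 were higher (61.1%, beside 17.9%) and 2 lower. Cp, ceruloplasmin, rose by 1.40 ± 0.12 and 1.83 ± 0.12, and Orm1 and Orm2, the orosomucoids, by 1.69 ± 0.18 and 1.72 ± 0.20 at 6 weeks and 1.48 ± 0.18 and 1.46 ± 0.20 at 11 months. Saa3 rose by 1.09 ± 0.25 at 11 months. The list's median was 0.26, 0.33, 0.36 and 0.23 on the 6-week-old arrays and 0.88, 0.87, 0.19 and 0.20 on the 11-month-old ones, where arrays 1 and 2 were also the high ones for Serpina3n, Serpina3c and Serpina3k. Those 2 arrays carried the knockout in Cy5, and the dye terms of Serpina3c (0.55, adjusted p = 0.0403) and Serpina3n (0.74, adjusted p = 0.039) passed. Crp was not above background.

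Among 46 proteases that serpins can inhibit, 39 were measured, with 4 higher (10.3%) and 1 lower (2.56%) at 6 weeks, beside 9.18% and 7.01% of all genes. At 11 months 12 were higher (30.8%) and 4 lower (10.3%), beside 17.9% and 16.8%. Htra1, a secreted protease that degrades matrix, rose by 1.74 ± 0.13 at 11 months. The lysosomal proteases Ctsl and Ctsh rose by 1.19 ± 0.13 and 1.05 ± 0.24, and the complement protease C1ra, a target of Serping1, by 1.0 ± 0.16. At 6 weeks Tmprss6 rose by 0.72 ± 0.08, Furin by 0.60 ± 0.11, Ctsk by 0.56 ± 0.11 and Ctsl by 0.50 ± 0.13. Furin was lower at 11 months, at -0.34 ± 0.11, and its difference between ages passed (-0.94 ± 0.15, adjusted p = 0.00641). Coagulation factor F2 and plasminogen, Plg, were not above background.

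Serpin partners and receptors, which include the heparan sulphate carriers that activate antithrombin and the receptors that clear serpin and protease complexes, had 20 of 22 measured. At 6 weeks 2 were higher and 5 lower, where 9.18% and 7.01% of all genes were, and at 11 months 10 were higher and 2 lower, where 17.9% and 16.8% were. Lrp1, the main clearance receptor of such complexes, fell by 0.67 at 6 weeks (± 0.12) and rose by 0.75 ± 0.12 at 11 months, and the difference, 1.42 ± 0.17, passed (adjusted p = 0.00294). Thbd, thrombomodulin, likewise changed from -0.59 ± 0.12 to 1.04 ± 0.12. At 6 weeks Gpc1 was at -1.30 ± 0.29, and at 11 months Sdc4 was at -1.56 ± 0.42, Plxdc2, a receptor of Serpinf1, at 0.88 ± 0.10 and Hspg2 at 0.80 ± 0.10.

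Several Serpin genes had a second measured probe, which the fit over all kept probes, chosen after seeing the data, reads separately. For Serpina1a the dimmer probe gave 1.12 (adjusted p = 0.00161) at 6 weeks and 0.78 ± 0.11 (adjusted p = 0.00127) at 11 months. The second probes of Serpina1d and Serpina1e rose at 6 weeks by 0.66 (adjusted p = 0.0112) and 0.70 (adjusted p = 0.00867). At 11 months that of Serpina1e gave 0.25 ± 0.11 (adjusted p = 0.138), while its brighter probe, which resembles those of Serpina1a and Serpina1c in part, was called, as was the mean of both (0.60, adjusted p = 0.0444). The second Serpinb6c probe gave 0.08 and 0.58 (adjusted p = 0.00422), close to the first.

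**Figure D4:**
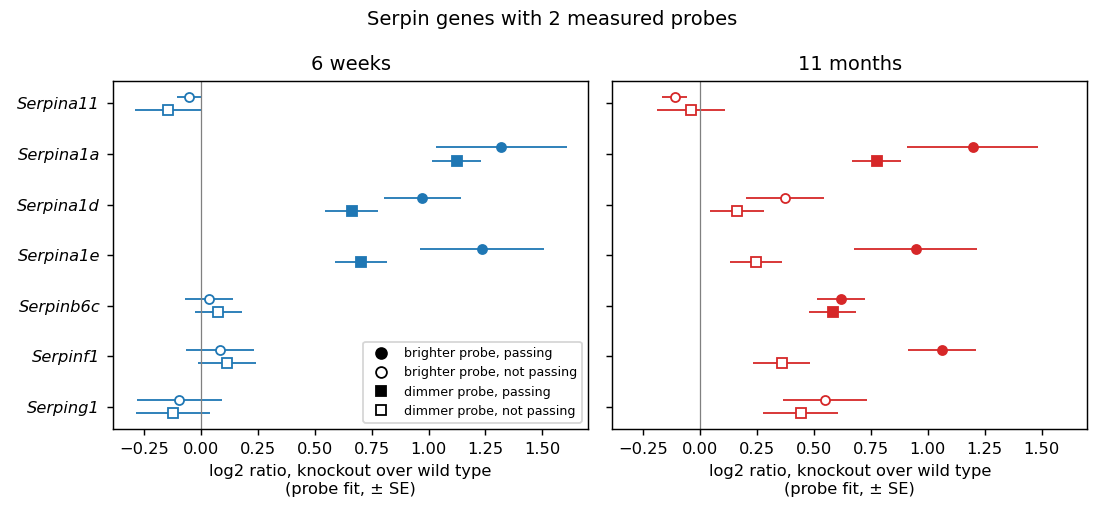
Fitted log2 change (x axis, ± SE, fit over all kept probes) of the 7 Serpin genes with 2 measured probes, brighter probe as circle and dimmer as square, filled where called, at 6 weeks and at 11 months. The 2 probes of Serpina1e and of Serpinf1 lie apart at 11 months, at 0.95 and 0.25 and at 1.06 and 0.36, and those of Serpinb6c lie together.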

How the data were processed

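Spot intensities, as deposited, are the mean pixel signal and median local background of each dye on Agilent 2-colour arrays, read with Feature Extraction 10.5.1.1 (6 weeks) or 10.10.1.1 (11 months), per the file headers, which annotate probes on mm9. The same files hold a log10 ratio of red over green that the scanner software background-subtracted and dye-normalised, per the file headers. A table deposited by the authors holds log2 values on 43173 rows; limma is named, without a role, in the submitters' processing notes. Matched by running spot number, its columns correlate at 0.885 to 0.978 with the ratios computed here, so it was read as knockout over wild type. Its column medians lie between -0.05 and 0.09, and its centring and normalisation stay unknown.

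Signals were background-corrected (normexp, offset 50) and loess-normalised within arrays in limma 3.58.1 (R 4.3.3). Control spots and the 131 to 247 spots per array marked as outliers by the scanner were left out; 61.2 to 68.2% of spots per channel were well above background, none was saturated, and the number of arrays limits the precision. Replicate spots were averaged per probe. A filter that asked for signal well above background in 4 or more of 16 channels, and for 3 or more usable arrays per age, left 26853 of 39429 probes, and the brightest probe stood for each of 21742 genes. One model over all 8 arrays (lmFit, eBayes) held 1 coefficient for each age and 1 dye coefficient common to both (5 residual degrees of freedom); the difference between ages is its contrast, 11 months minus 6 weeks. P-values were Benjamini-Hochberg adjusted over all genes of a comparison. Channel levels are log2 intensities after loess and Aquantile scaling, and a marker list's summed level is log2 of the sum over its measured genes. The model was tested on simulated data.

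Every measured Serpin gene is named except 1 that is not reported here but stays in the counts, and of related lists at most the 4 called genes with the largest change per comparison, plus genes of a list that were not above background and, chosen after its values were seen, Furin at 11 months. The Serpin genes and all lists were chosen with earlier results of these data known. Alternatives were no background subtraction, median centring, the scanner's ratio, the deposited table, Aquantile scaling, no or a stricter filter (12 of 16 channels), averaging the probes of a gene, leaving out the dye term or fitting 1 per age, each age alone, the replicate block and leaving out each array.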

Additional observations from a re-analysis of the deposited data

Results flagged for a closer look

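In 2 of 65 groups of 4 arrays tested, 1 array stood apart from the others by Dixon's criterion; chance alone marks about 1 in 20 such groups. Serpine2 read 0.91 on 11-month-old array 4, where the other 3 read 0.05 to 0.11. Serpina1f read 0.14 on 11-month-old array 1, where the other 3 read 0.01.

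The response to the knockout differed between the ages in 9 Serpin genes, which include the following, by the test of the difference in limma, as 11 months minus 6 weeks. Serpina3n (1.80), Serpina3c (1.39) and Serpinf1 (0.98) had large increases. Those of Serpinb6a (0.61), Serpinb6c (0.58) and Serpinb9 (0.56) were smaller. The clotting inhibitors Serpinc1 (-1.08) and Serpind1 (-0.36) went the other way. Age, batch, slide and scan cannot be told apart here. The calls for Serpina3c, Serpina3n and Serpinb9 held whichever 1 array was left out.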

How the results depend on the processing

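No Serpin value changed sign while called. Of 102 values (34 genes in 3 comparisons), 30 were called; 8 of these were called under every alternative, among them Serpina3c at both ages and Serpina3n, Serpinb6a, Serpinb6c, Serpinb9 and Serpinf1 at 11 months, and 22 uncalled values passed under at least 1. With median centring 948 genes were called at 6 weeks, 4912 at 11 months and 552 for the difference, 2 of the last being Serpin genes. The scanner's ratio called 2278 genes at 6 weeks, with 4 Serpin genes, and 21 Serpin genes at 11 months. Without a dye coefficient 3 Serpin genes were called at 6 weeks, and 2518 genes with 5 Serpin genes for the difference. Leaving out 6-week-old arrays 2 and 4 and 11-month-old array 4, chosen after seeing the data, called 801, 4871 and 689 genes in the 3 comparisons, with 3 Serpin genes in the last; fewer arrays enter that model. The causes of the other changes were not tested. When 1 array at a time was left out, all genes called ran from 1238 to 4278 at 6 weeks, 5027 to 7643 at 11 months and 2118 to 3225 for the difference, and Serpin genes from 1 to 9, 8 to 14 and 4 to 7.

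Replicate numbers are shared between the ages, but same-numbered arrays did not deviate together (correlations from -0.20 to -0.06), and 0 of the 4 6-week-old arrays correlated best with its own number. With the replicate block the difference called 4245 genes, 10 of them Serpin genes. A slide block could not be fitted, since each age had its own slide. Probes above background in 14 or fewer of 16 channels limit, among others, Serpina3g, Serpina3k, Serpina3m, Serpina6, Serpina9, Serpinb11, Serpinb6e, Serpinb9e, Serpinc1 and Serpind1.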

Other observations

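Agt encodes angiotensinogen, which has the serpin fold but inhibits no protease and whose name falls outside the rule. It read 1.74, 1.88, 2.46 and 2.27 at 6 weeks and 2.28, 2.43, 1.04 and 1.05 at 11 months, above 1 on every array. The change was 2.09 ± 0.11 (adjusted p = 0.000288) and 1.70 ± 0.11 (adjusted p = 5.66e-05). Serpinb6d, listed on the array under the name Gm11390, had 0.06 ± 0.06 and 0.21 ± 0.06 (adjusted p = 0.0302 at 11 months), and Serpina3j, listed as Gm4931, was not above background.

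Inhibitors of other families were counted from a list of 31 genes with 23 measured. At 6 weeks 2 were higher (8.7%) and 1 lower (4.35%), beside 9.18% and 7.01% of all genes. At 11 months 5 were higher (21.7%) and 4 lower (17.4%), close to the 17.9% and 16.8% of all genes. Kng1, kininogen, a cysteine protease inhibitor and the source of bradykinin, changed by -1.80 ± 0.19 and -3.9 ± 0.19. Itih5, an inter-alpha-trypsin inhibitor chain known in fat, rose by 1.45 ± 0.12 and 1.13 ± 0.12. Anxa2, which the list includes although it is not primarily a protease inhibitor, rose by 0.84 ± 0.14 and 0.76 ± 0.14. The metalloprotease inhibitors Timp2 and Timp1 rose by 0.90 ± 0.22 and 0.79 ± 0.12 at 11 months.

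Of the remaining marker lists, neutrophil genes had 5 of 7 measured. At 11 months 2 were higher and 1 lower (40% and 20%, beside 17.9% and 16.8% of all genes), with S100a9 at 1.34 and S100a8 at 1.11. Mast cell genes had 5 of 6 measured. At 6 weeks 1 was higher, Kit at 0.84, and at 11 months 1, Mcpt4 at 0.78. That is 20% at each age, beside 9.18% and 17.9% of all genes, and 0 were lower. The medians of the 5 were -0.23 at 6 weeks and 0.13 at 11 months. Endothelial genes had 5 of 5 measured, with Tie1 at -0.42 and Pecam1 at -0.28 at 6 weeks (40% lower, beside 7.01% of all genes). Mesothelial genes had 2 of 5 measured and no call.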
